A study of Sus scrofa with 12 samples.

Results

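The uterine miRNAs of gilts that had nursed for 48 h were compared with those of gilts of the same age that had been fed a milk replacer. Whole-uterus small RNA libraries came from young female pigs (gilts) whose breeding combined Landrace, Yorkshire, Duroc and Hampshire stock. The 4 nursed gilts suckled at will and the 4 replacer-fed gilts took a commercial replacer, and all 8 were collected at 50 h of age (postnatal day 2). These are 8 of the 12 libraries of the series. The other 4, from gilts collected within 1 h of birth that never nursed, are given as a reference level only. The series' design counts 4 gilts per group, the replicate numbers follow accession order, and the labels give no litter, so that litter and feeding cannot be told apart. Whole uteri were used, so fewer cells of a type and less of a miRNA per cell cannot be told apart.

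A miRNA is a short RNA, cut as the 5p or 3p arm from a hairpin precursor, that guides repression of messenger RNAs matching its seed. Many miRNAs are encoded in clusters that are transcribed together, and several belong to families that share a seed and hence predicted targets. In the pig, the first days after birth are when uterine glands begin to form and when colostrum delivers maternal signals to the piglet, a route called lactocrine. Milk itself also carries miRNAs, miR-148a among the most abundant of them in many mammals. The comparison at 50 h asks which uterine miRNAs depend on nursing at one age.

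A miRNA was included when it lay above the table's lower limit (the floor) in at least 4 of the 8 libraries, which held for 252 of 420 rows. A row is a mature miRNA from 1 precursor, and 30 of the tested names have more than 1 tested row with nearly the same reads. Of the 168 rows left out, 140 were at the floor in all 8 libraries and 28 were above it in 1 to 3. Levels are given in rpm, a miRNA's reads per 1000000 miRNA reads of its library. A level of 0 rpm stands for a value at the floor, which can hide up to 12 reads in the deepest library.

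Depth differed 315-fold among the 8 libraries. The nursed replicates 1 to 4 held 11807838, 37462, 8400976 and 242550 miRNA reads and the replacer-fed replicates 74799, 69816, 47992 and 9395582. Nursed replicate 2 and replacer-fed replicates 1 to 3 thus lay under 100000 reads, and 1 read is worth 26.7 rpm in nursed replicate 2. That library also stood apart in its levels. Its Pearson correlations with the other 7, across miRNAs on the log2 scale, were 0.943 to 0.972, against 0.974 to 0.995 for the other 21 pairs. The smooth muscle miRNAs miR-143 and miR-145 together took 291202 rpm of it, against 163532 to 213004 rpm in the other nursed gilts and 180983 to 209535 rpm in the replacer-fed gilts. Nearly all of this was miR-143-3p, at 285569 rpm. By contrast, miR-145-5p was lowest in that library, at 4084 rpm against 8189 to 21051 rpm in the replacer-fed gilts.

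No miRNA passed the test between nursed and replacer-fed gilts. By limma on log2(rpm + 10), two-sided and Benjamini-Hochberg adjusted over all rows, 0 of 252 rows (0%) had an adjusted p under 0.05, and the smallest was 0.284. At an unadjusted p under 0.05 there were 21 rows (8.33%), 6 higher (2.38%) and 15 lower (5.95%) in nursed gilts. On recovered reads, edgeR passed 0 rows with 25 at an unadjusted p under 0.05, DESeq2 0 with 17 and limma voom 0 with 28. The log2 difference, nursed minus replacer-fed, was above 0 for 89 rows (35.3%) and below 0 for 163 (64.7%), with a median of -0.16. With TMM scaling, which weighs libraries by their common miRNAs, 116 rows (46%) were above 0, the median was -0.05, and the rows at an unadjusted p under 0.05 were 13 higher and 9 lower. The values below are therefore to be read against a median of -0.16, which itself was -0.02 without nursed replicate 2 and -0.02 with library quality weights. Adding 10 rpm before taking logs shrinks the differences of miRNAs near or under that level.

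**Figure D1:**
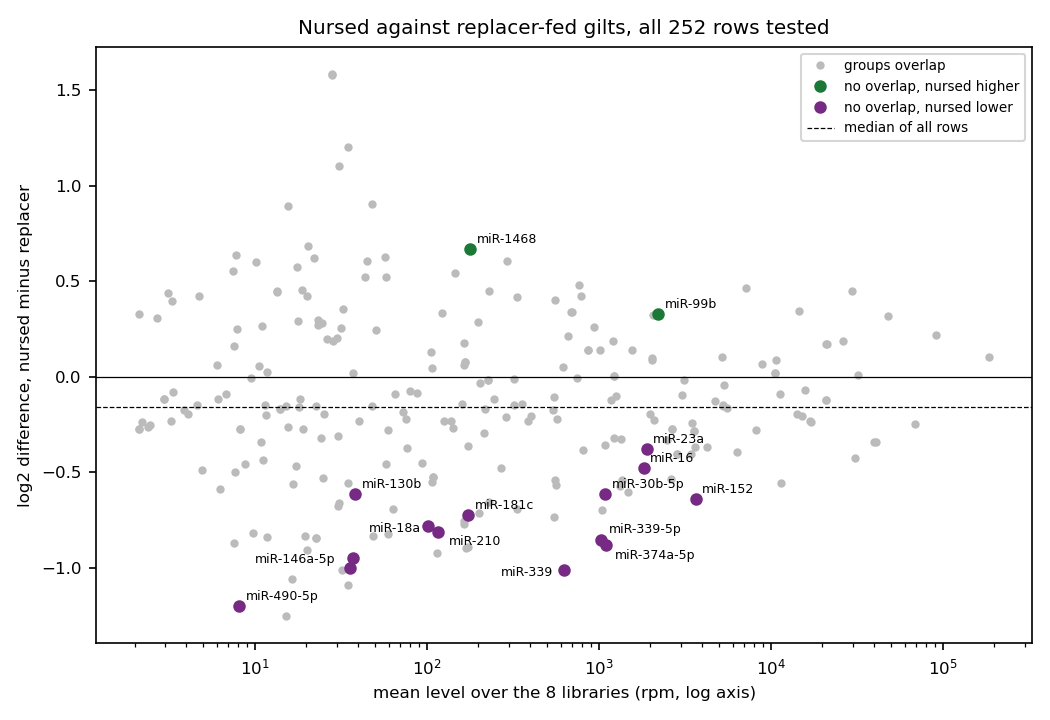
Log2 difference between nursed and replacer-fed gilts (y axis) against the mean level over the 8 libraries in rpm (x axis, log scale), 1 point per miRNA row tested. Coloured points are the 2 higher (0.794%) and 14 lower (5.56%) rows whose groups of 4 libraries did not overlap, and the dashed line is the median of all rows at -0.16.

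The miRNA with the smallest p was miR-152, which shares its seed with miR-148a and miR-148b and is known in human and mouse cells to target the DNA methyltransferase DNMT1. Levels in nursed replicates 1 to 4 were 2761, 2696, 3150 and 2853 rpm, and those in replacer-fed replicates 1 to 4 were 4345, 4884, 4688 and 4003 rpm. Every nursed gilt lay below every replacer-fed gilt. Newborns stood at 3825 ± 845 rpm (SD, n = 4), between the nursed mean of 2865 ± 200 and the replacer-fed mean of 4480.1 ± 389. The log2 difference was -0.64 ± 0.15 (SE; limma adjusted p = 0.284) and -0.48 by edgeR (adjusted p = 0.474). Among the shallow libraries, 1 nursed against 3 replacer-fed, it was -0.78, and among the deeper ones, 3 nursed against 1, it was -0.46.

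The seed relatives of miR-152 had other values, and the difference between them was not tested. miR-148a-3p was on the higher side in nursed gilts, at 29383, 32433, 49009 and 27636 rpm against 24024, 24536, 21691 and 29110.1 rpm. Nursed gilts lay above in 15 of 16 pairs of libraries, and the groups overlapped only through nursed replicate 4 and replacer-fed replicate 4. Its log2 difference was 0.45 ± 0.19 (limma adjusted p = 0.497). The other arm, miR-148a-5p, stood at 138.4 ± 34.9 against 106.9 ± 22.4 rpm, and miR-148b-3p at 979 ± 385 against 1200.3 ± 222.1 rpm, both with overlapping groups. Summed over the family, the level was 38459 ± 10274 rpm in nursed and 30521 ± 3011 rpm in replacer-fed gilts, a log2 difference of 0.30 ± 0.19 (limma adjusted p over families = 0.372).

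Both tested rows of miR-339 were lower in nursed gilts. For miR-339 the levels were 515, 240.2, 401 and 515 rpm against 668, 945, 1042 and 680.0 rpm. For miR-339-5p they were 989.9, 427, 786 and 775 rpm against 1029, 1332, 1584 and 1300 rpm. Groups did not overlap for either row. The log2 differences were -1.01 ± 0.28 and -0.85 ± 0.26 (limma adjusted p = 0.364 for both), but the rows name the same mature arm and can share reads, so they are not independent. Nursed replicate 2, the lowest library in both, held 9 and 16 reads of them.

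miR-374a-5p, an X-linked miRNA that in human lies in the FTX gene beside XIST, was at 985, 453.8, 1154 and 631 rpm in nursed and 1163, 1461, 1354 and 1671 rpm in replacer-fed gilts. These groups did not overlap, though nursed replicate 3 and replacer-fed replicate 1 lay side by side and changed order with TMM scaling. The difference on the log2 scale was -0.88 ± 0.28 (limma adjusted p = 0.364). Its near relative miR-374b-5p stood at 428 ± 211 against 671 ± 220.8 rpm with overlapping groups, a log2 difference of -0.74 ± 0.41.

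miR-16 and its relatives miR-15b, miR-195 and miR-497, a family that represses cyclins and the survival factor BCL2 in human and mouse cells, had lower means in nursed gilts for each of the 4, of which 0 passed by limma. miR-16 stood at 1503, 1735, 1479 and 1406 rpm in nursed and 2152, 2234, 2146 and 1987 rpm in replacer-fed gilts. Groups did not overlap, and the newborns spanned 1312 to 2049.6 rpm across both. The log2 difference was -0.48 ± 0.16 (limma adjusted p = 0.364). miR-15b, encoded beside a miR-16 copy, stood at 253 ± 74.6 against 416 ± 128.2 rpm, with nursed above in 2 of 16 pairs. miR-195 stood at 48.3 ± 20.4 against 68.3 ± 21.5 rpm and miR-497 at 11.9 ± 10.1 against 27.3 ± 13.0 rpm, both overlapping. The family's summed level ran from 1736 to 1934 rpm in nursed, 2500 to 2922 rpm in replacer-fed and 1704 to 2471 rpm in newborn gilts. Its summed log2 difference was -0.52 ± 0.18 (limma adjusted p over families = 0.261), and the count of 4 below 0 was the same with TMM scaling. The separation of the groups was not kept with that scaling, in which nursed replicate 2 has a factor of 0.785. That library then lay above every replacer-fed gilt in miR-16 and within the replacer-fed range in the family's summed level. A lower level of this family was already known from these libraries, so it is no independent support.

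In the miR-17 to miR-92a cluster, known for promoting proliferation, miR-18a separated the groups. It stood at 86.6, 53.4, 74.3 and 74.2 rpm in nursed and 133.7, 128.9, 145.9 and 111.8 rpm in replacer-fed gilts. Groups did not overlap, and newborns, at 70.5 ± 12.2 rpm, were level with nursed gilts. miR-18a, which represses the oestrogen receptor ESR1 in human cells, had a log2 difference of -0.78 ± 0.29 (limma adjusted p = 0.428). It rested on 2 reads in nursed replicate 2 and 7 to 10 reads in the shallow replacer-fed libraries. The miR-18 family sum of miR-18a and miR-18b had the smallest p of 28 families, at 73.9 ± 15.3 against 134.8 ± 13.4 rpm and a log2 difference of -0.80 ± 0.23 (limma adjusted p = 0.172). This sum is nearly all miR-18a and no separate support, since miR-18b had a mean of 3.24 rpm and was above the floor in 4 of the 8 libraries.

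The other members of the cluster overlapped widely. miR-17-5p, with a nursed mean of 840 ± 447 rpm, had 347 rpm in nursed replicate 2 and 1261 rpm in nursed replicate 1, the replacer-fed gilts lying at 963 to 1904 rpm. miR-20a spanned 667 to 3451 rpm in nursed and 2063 to 4731 rpm in replacer-fed gilts. Of the 12 members of the cluster and its paralogs tested, 12 were below 0, with a median of -0.28 beside -0.16 over all rows. With TMM scaling 3 of the 12 were above 0. The summed level was 4965 rpm in nursed replicate 2 and 8712 to 14898 rpm in the other nursed gilts, against 10602 to 16277 rpm in replacer-fed gilts.

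miR-30b-5p, of a family known for restraining epithelial-to-mesenchymal transition in human cells, stood at 1082, 587, 875 and 936 rpm in nursed and 1123, 1289, 1313 and 1538 rpm in replacer-fed gilts. The groups did not overlap. Its log2 difference was -0.62 ± 0.22 (limma adjusted p = 0.428). Its relatives miR-30c-5p and miR-30e-5p were also below 0, at -0.27 and -0.13, and miR-30a-5p was above, at 0.10. Over both arms, 5 of 10 were above and 5 below 0. Those above were miR-30a-5p and the 3p arms of miR-30a, miR-30b, miR-30e and miR-30c-1. The family's summed level was 18686 ± 4491 against 19528 ± 3478 rpm. The neighbouring miR-30d, within 10000 bases on the pig genome, had a log2 difference of -0.04 (0.12 with TMM scaling).

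**Figure D2:**
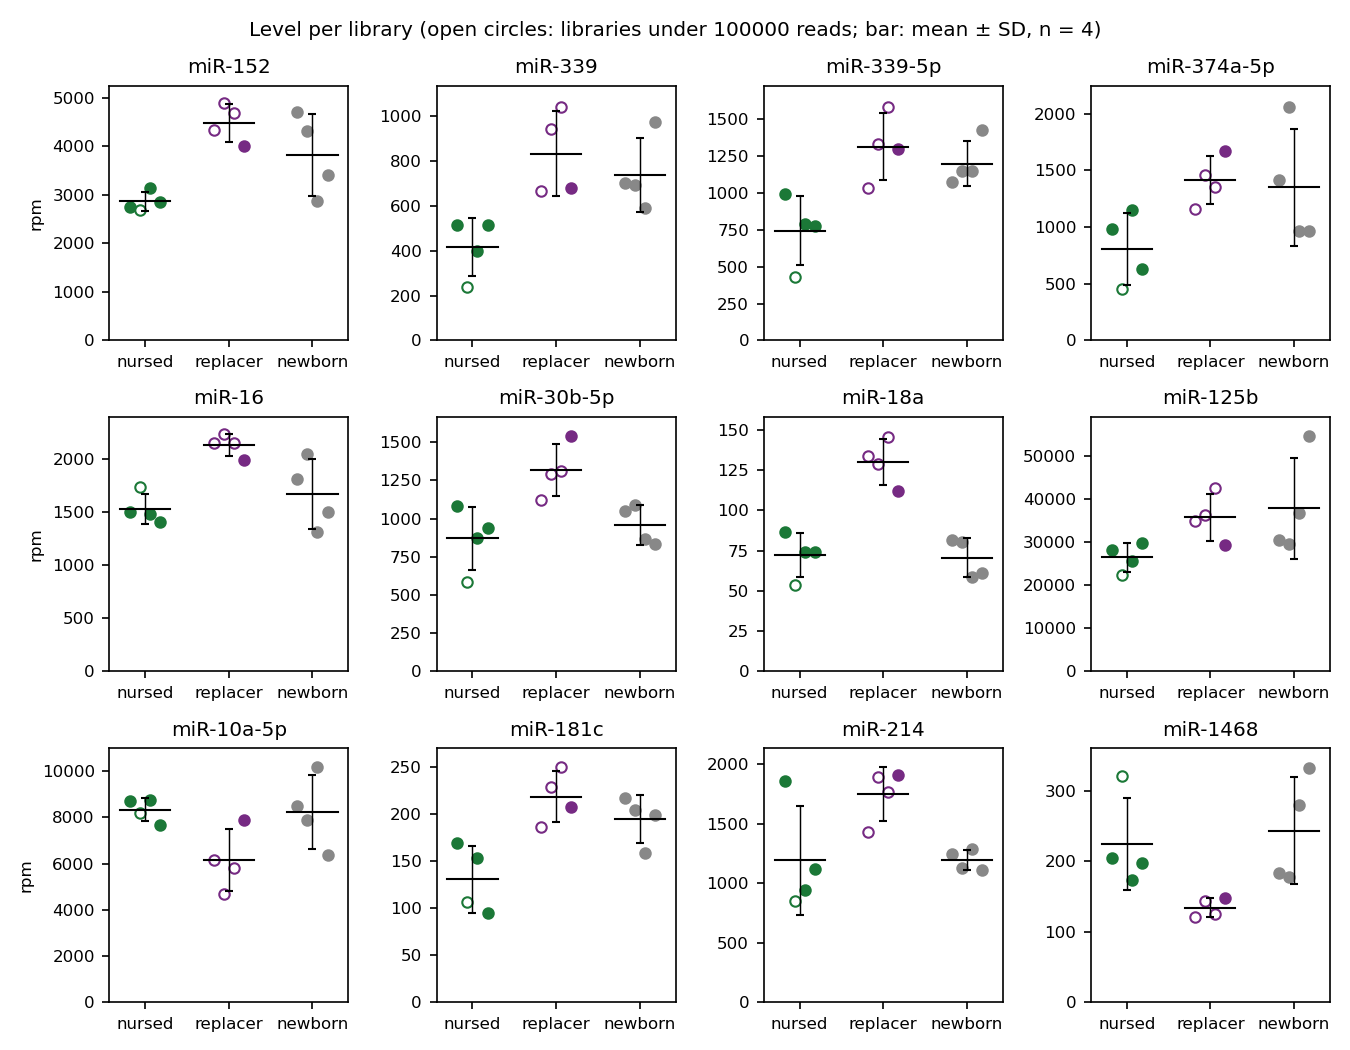
Level in rpm (y axis, from 0) of 12 miRNAs above the floor in all 8 libraries, chosen by smallest p, in each nursed, replacer-fed and newborn gilt. Points are libraries, open where under 100000 reads, and bars are mean ± SD (n = 4); miR-152 is at most 3150 rpm in nursed and at least 4003 rpm in replacer-fed gilts.

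The most abundant miRNA with an unadjusted p under 0.05 was miR-125b, the vertebrate counterpart of the worm timing miRNA lin-4. It stood at 28268 to 29837 rpm in nursed replicates 1 and 4 and 22263 to 25589.7 rpm in replicates 2 and 3, and at 34907, 36181, 42486 and 29265 rpm in replacer-fed gilts. Only replacer-fed replicate 4 reached into the nursed range, so that nursed lay above in 1 of 16 pairs. The log2 difference was -0.43 ± 0.16 (limma adjusted p = 0.428), and it was -0.07 among the deeper libraries. miR-99b, encoded with let-7e and miR-125a, was one of 2 rows (0.794%) that lay above in every nursed gilt, at 2377, 2696, 2357 and 2445 rpm against 2273, 1690.2, 1917 and 2019 rpm. Its log2 difference was 0.33 ± 0.16 (limma adjusted p = 0.516).

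miR-1468 was the other row that lay above in every nursed gilt. Its levels were 204.7, 320.3, 173.9 and 197.9 rpm in nursed and 120.3, 143.2, 125.02 and 147.2 rpm in replacer-fed gilts, and 243 ± 76.0 rpm in newborns. On the log2 scale the difference was 0.67 ± 0.28 (limma adjusted p = 0.477).

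miR-10a-5p, encoded in a HOX gene cluster, stood at 8689, 8168, 8766 and 7677 rpm in nursed and 6163, 4669, 5813 and 7904 rpm in replacer-fed gilts. The 3 shallow replacer-fed libraries lay below all nursed gilts and the deep one lay among them. The log2 difference was 0.46 ± 0.17 (limma adjusted p = 0.428), with 0.57 among shallow and 0.08 among deeper libraries. miR-10b, its abundant relative, stood at 53212 ± 10710.5 against 42679 ± 8074 rpm. miR-196a stood at 359 ± 151.8 against 231 ± 78.5 rpm, and both overlapped. miR-196b-5p went the other way, at 2571 ± 1056 against 3159 ± 355 rpm. Of 6 HOX cluster miRNAs tested 4 were above and 2 below 0 (median 0.38), and miR-10 as a family had a log2 difference of 0.33 ± 0.18 (limma adjusted p = 0.372).

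Counting those above, 14 of the 252 rows (5.56%) lay lower in every nursed gilt than in any replacer-fed gilt. miR-181c stood at 169.1, 106.8, 153.2 and 94.8 rpm in nursed and 187.2, 229.2, 250.0 and 208.1 rpm in replacer-fed gilts (log2 difference -0.73 ± 0.28). The abundant miR-181a, at a log2 difference of 0.02, and miR-181b, at 0.09, lie in other clusters. miR-23a stood at 1654 ± 207.9 against 2147 ± 133.1 rpm (log2 difference -0.38 ± 0.16), and 7 of the 8 tested members of the miR-23, miR-24 and miR-27 clusters were below 0 (6 with TMM scaling). miR-210, the classical hypoxia-induced miRNA, stood at 115.9, 26.7, 114 and 94.8 rpm against 133.7, 128.9, 145.9 and 174.8 rpm, nursed replicate 2 having 1 read. Newborns were higher still in 3 of 4 gilts, at 191.1 ± 70.3 rpm. miR-130b stood at 27.9 ± 1.98 against 48.8 ± 12.04 rpm from 1 to 7 reads in the libraries under 1000000 reads. miR-146a-5p, a feedback inhibitor of NF-kB signalling, had 2 rows in this count, and both were at the floor in nursed replicate 2.

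miR-214, a mesenchymal miRNA encoded with miR-199a, stood at 1860.1, 854, 942 and 1126 rpm in nursed and 1430.5, 1891, 1771 and 1915 rpm in replacer-fed gilts. Nursed replicate 1 lay among the replacer-fed gilts and the other 3 lay below them. The log2 difference was -0.61 ± 0.25 (limma adjusted p = 0.477), and newborns, at 1195 ± 84.8 rpm, were level with the nursed mean of 1195 ± 457 rpm. miR-199a-3p stood at 36394 ± 6565 against 45952 ± 6357 rpm, with nursed above in 2 of 16 pairs, and 4 of 5 mesenchymal miRNAs tested were below 0 (3 of 5 with TMM scaling).

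Low miRNAs among those of smallest p rested on single reads. miR-490-5p was at the floor in nursed replicates 1, 2 and 4 and at 1.07 rpm in replicate 3, and had 1, 2, 1 and 11 reads in the replacer-fed gilts. Because the floor hides up to 12 reads in nursed replicate 1, no fold is given. Its other arm miR-490-3p went the opposite way, at 35.1, 80.1, 55.7 and 33.0 rpm against 13.4, 28.6, 0 and 34.9 rpm. miR-182, an epithelial miRNA, was at the floor in nursed replicates 2 and 4 and at 8.47 and 11.4 rpm in the others, against 11.4 to 43.0 rpm in replacer-fed gilts. miR-129a-5p and its near copy miR-129b, brain-enriched miRNAs, had the largest positive log2 difference, 1.58 ± 0.51 for each. Among the deeper libraries, which held 9 to 342 reads of miR-129a-5p, it was 0.14.

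The 16 miRNAs named by p are the 12 of smallest p together with the 12 of smallest p among those above the floor in all 8 libraries. They had 1 sign in both depth classes, although each class holds a single library of one group and gives no test. The differences were larger among the shallow libraries in 15 of the 16.

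**Figure D3:**
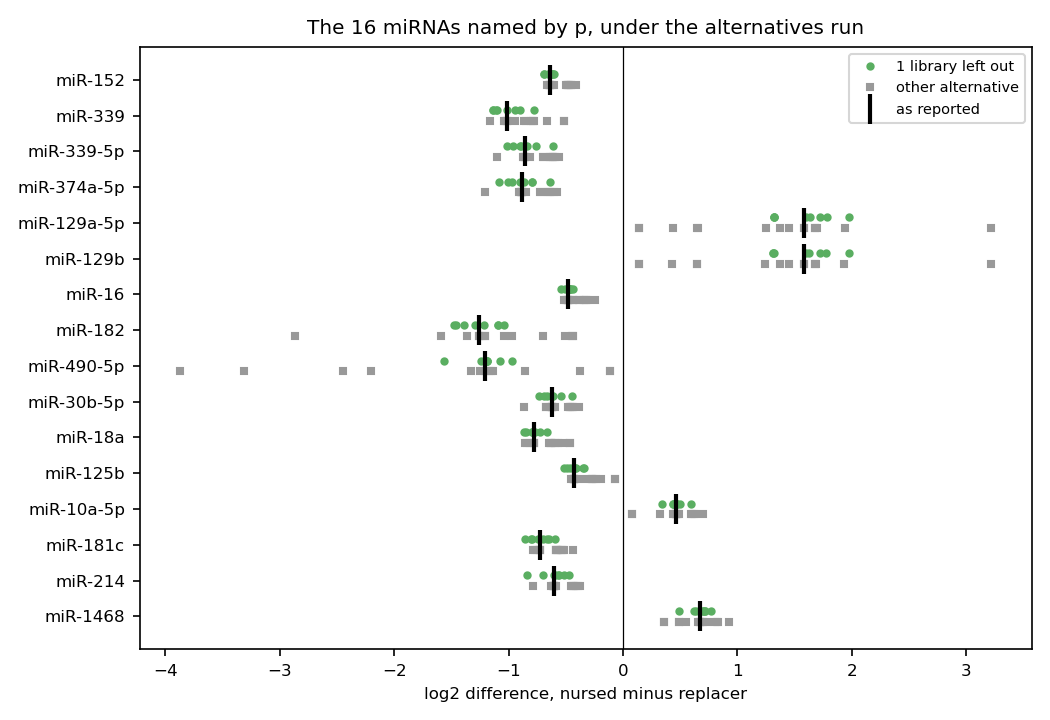
Log2 difference, nursed minus replacer-fed (x axis), of the 16 miRNAs named by p as reported (black bars), with 1 library left out (green) and under the other alternatives (grey). All values of a miRNA lie on 1 side of 0, which is no independent support because the miRNAs were chosen by p in these libraries. The low miRNAs miR-129a-5p, miR-129b, miR-182 and miR-490-5p span the widest range.

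Milk-abundant miRNAs were looked at because the nursed gilts had taken in milk. For 24 such miRNAs listed, 17 names were found, which count both arms of miR-148a and of miR-30a, and 16 names were tested. Of these 0 passed by limma, with 9 above and 7 below 0 (12 and 4 with TMM scaling) and a median of 0.06 beside -0.16 over all rows. Their summed level was 249992, 267738, 273210 and 263735 rpm in nursed and 232918, 229876, 232706 and 239208 rpm in replacer-fed gilts. These groups did not overlap, but the newborns, which had taken no milk, spanned both at 234014 to 272876 rpm. At an unadjusted limma p under 0.05 the list had 1 higher member, miR-148a-3p, and 1 lower, miR-182. Their log2 differences were 0.45 and -1.25, with miR-182 at a mean of only 15.2 rpm. Of the other members, miR-99a stood at 98861 ± 28499 against 82940 ± 11460 rpm and let-7i at 28334 ± 7478 against 24344 ± 2789 rpm. miR-21, at 32386 ± 6520 against 32252 ± 6858 rpm, and miR-30a-5p, at 5399 ± 824 against 5071 ± 1150 rpm, also differed by less than the nursed SD, as did miR-99a and let-7i. miR-191 stood at 1970.4 ± 573.9 against 2232 ± 241 rpm. Which of these molecules were taken up from milk cannot be read from sequence counts of the uterus.

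**Figure D4:**
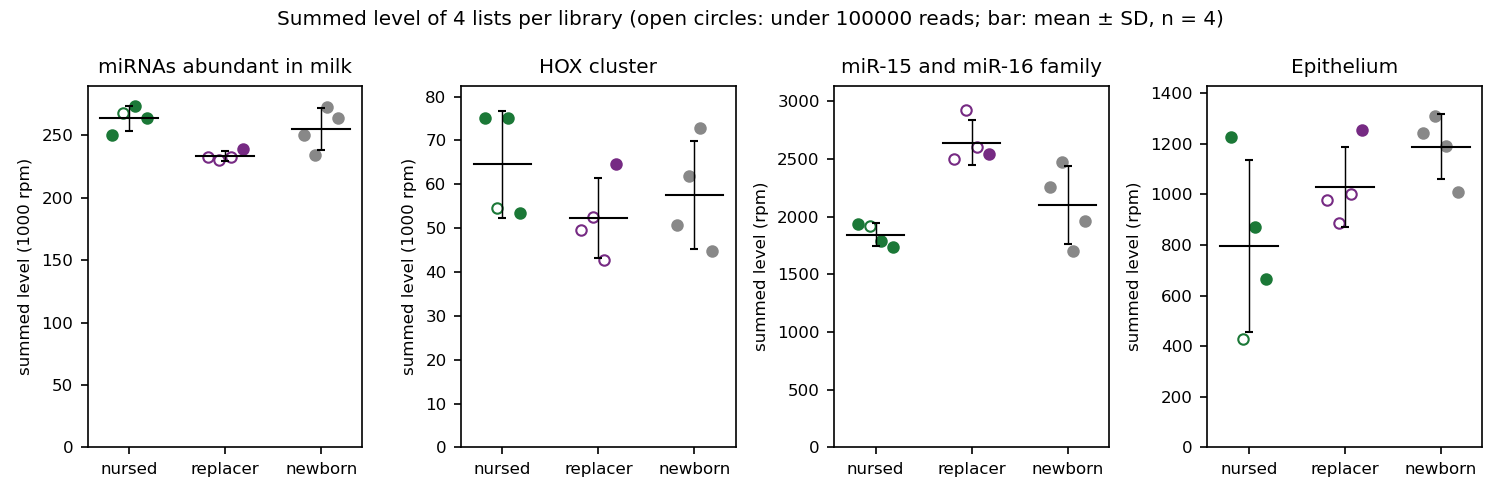
Summed level per library (y axes from 0, in 1000 rpm or rpm) of milk-abundant miRNAs, HOX cluster miRNAs, the miR-15 and miR-16 family and epithelial miRNAs. Points are libraries, open where under 100000 reads, and bars are mean ± SD (n = 4). The nursed and replacer-fed points do not overlap for the milk list and for miR-15 and miR-16, and overlap for the other lists. With TMM scaling, not drawn here, the groups overlap for miR-15 and miR-16 as well.

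The X-linked cluster of miR-532, miR-500 and miR-362 was above 0 in 4 of 4 members, with a median of 0.24 and 0 passing by limma. The count was 4 with TMM scaling, but miR-362 was below 0 under 7 alternatives and miR-500 under 3. Its main member miR-532-5p stood at 597, 694, 699.7 and 544.2 rpm in nursed and 455, 458, 438 and 553 rpm in replacer-fed gilts, above in 15 of 16 pairs. Its log2 difference was 0.40 ± 0.20 (limma adjusted p = 0.516). let-7 and miR-98, a family tied to maturation, had 2 of 9 members above 0 (5 of 9 with TMM scaling), and the family sum was 95493 ± 14008 against 93036 ± 2952 rpm.

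Among the 10 most abundant miRNAs, miR-27b-3p stood at 55425, 61155, 60346 and 74879 rpm in nursed and 76191, 76458, 84326 and 61778 rpm in replacer-fed gilts. Nursed lay above in 1 of 16 pairs, through nursed replicate 4 and replacer-fed replicate 4, and the log2 difference was -0.25 ± 0.15, but 0.03 with the 4 shallow libraries left out. The miR-99, miR-100 and miR-125 group was split, with miR-100 at 16516 ± 4766 against 12658 ± 652 rpm and a log2 difference of 0.34 ± 0.19. Neural miRNAs had 8 of 13 tested members above 0 and a median of 0.07, but several members are near copies with nearly the same levels. These are miR-129a-5p and miR-129b, miR-218-5p and miR-218b, and miR-9, miR-9-1 and miR-9-2. The median is the value of miR-9-1 and miR-9-2, so the count is not one of independent miRNAs. Among the neural miRNAs, miR-218-5p stood at 3232 ± 548.9 against 3933 ± 598 rpm and miR-9 at 171 ± 63.8 against 159.8 ± 43.0 rpm. Of 4 imprinted miRNAs of the DLK1-DIO3 locus 1 was above 0 (2 with TMM scaling), and its main member miR-127 was at 1441 rpm in nursed replicate 2 and 315 to 682 rpm in the other 7 libraries. miR-29a, a repressor of collagen genes, stood at 12.8, 26.7, 23.2 and 24.7 rpm in nursed and 0, 0, 20.8 and 16.3 rpm in replacer-fed gilts, the 26.7 rpm being 1 read. Its relative miR-29c went the other way, at 10.1 ± 7.12 against 12.8 ± 9.65 rpm.

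Markers of smooth muscle, epithelium, endothelium, red cells, leukocytes, striated muscle and liver were measured in both groups. Smooth muscle miRNAs were led by miR-143-3p, at 146185, 285569, 151585 and 204288 rpm in nursed and 196540, 182293, 172112 and 158052 rpm in replacer-fed gilts. The high value of nursed replicate 2 sets the spread of the nursed group, and the log2 difference was 0.10 ± 0.21, or -0.10 without that library. Its cluster partner miR-145-5p stood at 9687 ± 5776 against 13201 ± 5539 rpm. Epithelial miRNAs summed to 427 to 1228 rpm in nursed and 888 to 1255 rpm in replacer-fed gilts, with miR-205 at 865, 213.6, 475 and 371 rpm against 562, 473, 688 and 828 rpm. The epithelial miR-429, of the miR-200 family, stood at 151.3 ± 46.7 against 194.2 ± 42.9 rpm. Of the 5 epithelial miRNAs tested 4 were below 0, and miR-183 and miR-96-5p lay at the floor in 5 of the 8 libraries.

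Endothelial miR-126-3p overlapped between the groups, at 11087 ± 1595 against 10415 ± 1034 rpm, and 3 of 5 endothelial miRNAs were below 0. Of these miR-221-3p stood at 487.5 ± 231.5 against 642 ± 59.2 rpm and miR-222 at 85.0 ± 49.2 against 129.5 ± 75.5 rpm, both lowest in nursed replicate 2. The red cell miRNAs miR-451, miR-144 and miR-486 summed to 94.9 to 460 rpm in nursed and 170 to 473 rpm in replacer-fed gilts. Among leukocyte miRNAs, miR-146b stood at 2321 ± 734 against 1800 ± 349 rpm and miR-155-5p at 234 ± 96.2 against 309 ± 54.6 rpm, and 2 of 6 were above 0. The leukocyte list summed to 1655 to 3463 rpm in nursed and 1898 to 2843 rpm in replacer-fed gilts. In striated muscle miR-1 the levels were 3104 ± 770 in nursed and 3140.0 ± 730 rpm in replacer-fed gilts. All 6 striated muscle miRNAs tested were below 0 (4 with TMM scaling), and the more abundant row of miR-133a-3p stood at 134.8 ± 88.9 against 212.7 ± 49.1 rpm, with 26.7 rpm in nursed replicate 2. The liver miRNA miR-122 had 31 reads or fewer in 7 of the 8 libraries and 71 in the other. In the same liver and gut list, the more abundant miR-192 stood at 71.6 ± 25.6 against 42.4 ± 14.3 rpm, with nursed above in 14 of 16 pairs. miR-194a stood at 46.3 ± 24.7 against 49.2 ± 11.9 rpm, and of the 4 members tested 1 was above and 3 below 0. None of these passed by limma, and the part of cell content in the miRNA differences above was not tested.

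Between the arms of 1 precursor, 0 of 38 balances (0%) passed by limma and 3 (7.89%) had an unadjusted p under 0.05. The balance is log2 of (5p rpm + 10) over (3p rpm + 10), in which the scaling of a library largely cancels. For miR-490 it was -2.17, -3.17, -2.57 and -2.10 in nursed and 0, 0, 1.62 and -2.01 in replacer-fed gilts. The deep replacer-fed library fell beside the nursed gilts, and the shallow ones stood apart with 0 to 2 reads per arm. The difference was -2.41 ± 0.67 (limma adjusted p = 0.195). miR-296 was next, with a difference of -1.14 ± 0.43 (limma adjusted p = 0.419). Its balance in nursed replicate 2 was -3.17, against -1.94 to -1.74 in the other nursed gilts. That is the value of miR-490 in the same library, where miR-490-5p was at the floor. For miR-30b the balance was 5.84, 4.02, 5.72 and 5.40 against 6.82, 7.02, 5.42 and 6.59, a difference of -1.22 ± 0.49 (limma adjusted p = 0.419), with replacer-fed replicate 3 inside the nursed range. The 3p arm of miR-30b was above the floor in 6 of the 8 libraries. It was at the floor in replacer-fed replicates 1 and 2, so the added 10 rpm alone stands for it in 6.82 and 7.02. The size of this difference therefore depends on the 10 rpm added. By p miR-455 and miR-129a came next, with differences of 1.14 ± 0.56 and 1.16 ± 0.57. Of the miR-129a arms, 5p was above the floor in 6 and 3p in 4 of the 8 libraries, so its balance has the same limit.

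Over families set by name, 0 of 28 (0%) passed by limma and 4 (14.3%) had an unadjusted p under 0.05. Besides miR-18 and miR-15/16 these were miR-374, at 1234 ± 517 against 2084 ± 387 rpm and a log2 difference of -0.84 ± 0.33, and miR-125, at 34187 ± 5866 against 44387 ± 4825 rpm and -0.39 ± 0.16. With depth class as a covariate 8 families passed, among them miR-17/20 and miR-133, but 0 did once nursed replicate 2 was also left out. By position, 28 clusters of distinct members held at least 2 tested precursors within 10000 bases, with 79 names in all. The pair of miR-181a and miR-181b, found at more than 1 position, counts once. The 7 tested arms of the miR-17 to miR-92a cluster all lay below 0, as did 64.7% of all rows.

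The make-up of whole libraries was compared by exact two-sided permutation over 70 splits, in which the smallest possible p is 0.0286. The effective number of miRNAs, the exponential of the Shannon entropy, was 38.8, 22.6, 38.1 and 30.1 in nursed and 33.6, 34.5, 33.5 and 39.6 in replacer-fed gilts (exact p = 0.6). The 10 most abundant rows took 55.3% to 68.3% of nursed and 54.6% to 60.4% of replacer-fed reads (exact p = 0.571). Thinned to 37462 reads, the nursed libraries were expected to show 193.8, 186, 196.02 and 189.8 rows and the replacer-fed libraries 195.9, 198.7, 203.2 and 198.5. Only nursed replicate 3 reached the replacer-fed range (exact p = 0.0571). Without nursed replicate 2, the first 2 differences changed sign, from -2.93 to 0.332 miRNAs and from 2.18 to -0.347 percentage points.

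**Figure D5:**
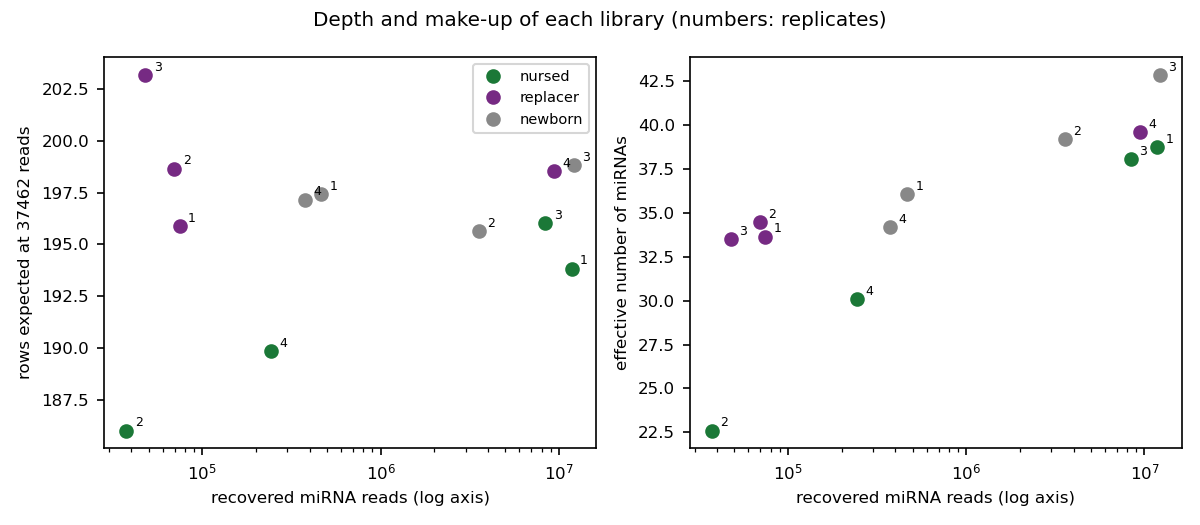
Expected number of rows after thinning to 37462 reads (left) and effective number of miRNAs (right) against recovered miRNA reads (log axis), 1 numbered point per library. Nursed replicate 2 is lowest in both panels, at 186 rows and 22.6 miRNAs, and nursed replicate 4 is next at 189.8 rows and 30.1 miRNAs.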

How the data were processed

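Per the labels' protocols, 500 ng of total RNA per uterus entered a NEBNext small RNA kit, and libraries were read on a HiSeq instrument as 50 bp single ends. The submitters' processing notes name FastQC and the Sscrofa 10.2 genome. Which aligner, counter and scaling made the table is not given in the sources used here. Values were deposited as 1 table: the authors deposited 1 normalized signal table of 420 rows. Its values are whole reads over a library's own factor, and anything below 1 was set to the floor of 1. Reads were recovered from the spacing of low values. Up to 1000 reads, 100% of values were whole to within 0.1 read in each library; over the full range the share was 95.9% to 100%. Shares of the summed signal above the floor gave rpm.

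Rows were tested with limma 3.58.1 in R 4.3.3, using a moderated variance with a trend, on log2(rpm + 10) over the 8 libraries, with no covariate and a threshold of 0.05 on Benjamini-Hochberg adjusted p. edgeR 4.0.16 (quasi-likelihood), DESeq2 1.42.0 and limma voom ran on recovered reads. Replicates were numbered in accession order. Replicate pairs of a group differed by a chi-square of 2.98 to 630 per degree of freedom over 12 pairs, more than counting noise between repeat readings of 1 library. These values cannot tell libraries of separate gilts from separate libraries of 1 gilt. No molecular identifiers were used.

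A rule selected the 12 rows of smallest limma p and the 12 of smallest p among rows above the floor in all 8 libraries. It also took the 10 most abundant, up to 3 members of each list, and the 5 families and 5 arm balances of smallest p. Some list members so selected are not described above, among them miR-204, miR-128, miR-130a, miR-150, miR-31 and miR-499-5p. miRNAs named for non-overlapping groups or as other list members were chosen after their values were seen. The comparison, its lists and its tests were chosen with earlier results of these data known. The 28 families were set by miRNA name, since no mature sequences were used here, and were picked after the table was read. Clusters use the RefSeq gene table of assembly Sscrofa11.1, which matched 216 of the tested names, for neighbourhood only. The tests were tried on simulated counts. Figures were drawn with matplotlib 3.10.9.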

Additional observations from a re-analysis of the deposited data

Results flagged for a closer look

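In 3 of 56 groups of 4 libraries checked, 1 library stood apart from the other 3 by more than Dixon's 95% limit; chance gives about 1 in 20. miR-490-5p was at 1.071 rpm in nursed replicate 3 and at the floor in the other nursed gilts, so this rests on the floor of the table. The effective number of miRNAs was 39.61 in replacer-fed replicate 4, against 33.5 to 34.5 in the other replacer-fed gilts. The 10 most abundant rows took 54.6% of the reads of the same library, against 59.5% to 60.4% in the others. Replacer-fed replicate 4 held 9395582 reads and the other 3 under 100000; the part of depth in these differences was not tested.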

How the results depend on the processing

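No row passed in any of 24 alternatives by limma, edgeR or DESeq2, among them pseudocounts of 1 and 50 rpm, other filters, TMM and median-of-ratios scaling, the deposited values, library weights, all 12 libraries, depth class as a covariate, 1 row per name and each library left out; the smallest adjusted p was 0.0506, with the depth covariate. Rows at an unadjusted p under 0.05, 6 higher and 15 lower as reported, were 13 and 9 with TMM and 14 and 11 with median-of-ratios scaling, and 0 on the deposited values. With the depth covariate they were 5 and 58, and 0 and 5 once nursed replicate 2 was also left out. The 16 miRNAs named by p kept their sign in every alternative run for them. They were chosen by p in the libraries that the alternatives use again, so the kept sign is no independent support. The filter on all 8 libraries was not among the alternatives for miR-129a-5p, miR-129b, miR-182 and miR-490-5p, which it removes. Of 78 miRNAs named by the rule 31 changed sign in at least 1, among them miR-143-3p, miR-21, miR-27b-3p, miR-1 and miR-451, so their values carry no direction; that such changes of uncalled miRNAs count as unchanged results was decided after they were seen. The depth covariate called 8 families (0 without nursed replicate 2), a covariate that sets that library against the 3 shallow replacer-fed ones. With each library left out, arm balances called ranged from 0 to 1 (miR-490, without replacer-fed replicate 4, adjusted p = 0.00940 by limma). Rows without overlap ranged from 18 to 39, with 25 without nursed replicate 1, 29 without nursed replicate 4 and 39 without replacer-fed replicate 4, as fewer samples overlap less often; under TMM they were 17 (8 higher and 9 lower). The effective number difference ranged from -5.056 to 0.3318 and the share difference from -0.347 to 3.968 percentage points. The difference in rows at equal depth ranged from -9.183 (without nursed replicate 3, exact permutation p = 0.0286) to -5.842. The alternatives with the 4 shallow libraries left out, nursed replicate 2 left out beside the covariate, TMM for families and the counts of rows without overlap were added after seeing the data; leaving out the shallow libraries leaves 1 replacer-fed library, assumed to vary like the others. No paired analysis was possible because the replicate numbers follow accession order and pair no samples. With 1 read worth 26.7 rpm in nursed replicate 2, differences of 1 or 2 reads set the values of low miRNAs there.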
